A study of Punica granatum with 8 samples.

Results

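The 100 most abundant genes of pomegranate (Punica granatum) hairy roots were taken as the genes with the largest mean normalized count over 8 libraries, of 18831 genes listed. They made up 0.531% of the listed genes and took 15.6% ± 1.36 (SD, n = 8 libraries) of all counts. As the members were chosen on this mean, their high level is a description and not a result. The rule used no contrast between groups, but a gene that is low in 1 group could enter only through the others. By the mean of each group alone, 71 of the 100 ranked in the top 100 of every group, while 14 were outside it in EV, 15 in PgMyb308-like and 10 in line 1712. For members outside it in a group, wide spread and a difference from that group come in part with the choice and support nothing.

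In most plant tissues a small number of genes supplies a large part of the messenger RNA, and such genes often serve protein synthesis, the cytoskeleton, water transport, the cell wall or defence. Because they hold so many reads, they are measured with little counting error, and a swing in a few of them moves the share of every other gene in the library. The annotation used here gives identifiers, positions and gene types but no product names, so that no role can be given to single members, and the tissue could not be checked by marker genes.

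Hairy roots grow from plant tissue infected with Agrobacterium rhizogenes, and each line starts from its own insertion of the construct. The cultivar was PG116-17, and roots that showed the green fluorescent marker were grown for 3 months in a greenhouse. There were 3 groups. The EV group (n = 3) carried the empty vector, and the PgMyb308-like group (n = 3) overexpressed PgMyb308-like, an R2R3 Myb transcription factor, from the constitutive CaMV 35S promoter. The group named line 1712 (n = 2) was labelled as overexpressing the R2R3 PgMyb308, under another sequence record, and its promoter was not given in the sources used here. All groups shared the infection and the vector marker as far as stated, none was an untransformed root, and each library was made from whole roots with all their cell types. In such RNA, fewer cells of a type and less RNA per cell cannot be told apart. The libraries were numbered as replicates, and where they are not separate transformation events, as for line 1712 the sources do not say, p-values measure only the spread between these libraries.

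Transcripts were measured by TranSeq, which reads the 3′ ends, so that longer transcripts gain no reads and levels of different genes were compared without dividing by length. Library totals ran from 1263321 counts in PgMyb308-like replicate 1 to 3976951 in line 1712 replicate 1. The lowest raw count of any member in any library was 106, and all 100 members were among the 15957 genes tested. The PgMyb308-like libraries did not stand together. On the first principal component of the members' log2 levels, which held 63.3% of their variance, PgMyb308-like replicates 1 and 2 lay at 6.87 and 7.20. PgMyb308-like replicate 3 lay at −3.46, within the range of the EV libraries (−4.91 to −2.03), and the line 1712 libraries lay apart at −3.63 and 2.97. On the second component, which held 16.4% of the variance, PgMyb308-like replicate 3 did not lie with EV. It had the highest value of all libraries there, 4.48, and EV ran from −3.26 to −0.769. Of the first component, LOC116214822, LOC116214823 and LOC116213226 gave 21.9%, 9.85% and 5.02%. These genes are members only through the groups where they are high, so that the positions come in part with the choice of members. For the group differences that rest most on PgMyb308-like replicate 3, the value without that library is given as well.

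The 100 members took between 13.8% and 18.4% of the counts of a library. The shares were 15.8%, 15.1% and 14.8% in EV replicates 1 to 3. They were 13.8%, 15.2% and 18.4% in PgMyb308-like replicates 1 to 3, and 16.4% and 15.01% in line 1712 replicates 1 and 2. Both the lowest and the highest share thus came from the PgMyb308-like group, and the groups overlapped. Counting error was small beside these differences. The 95% Wilson interval ran from 13.7% to 13.8% at the lowest share and from 18.3% to 18.4% at the highest, and it covers counting error only, as reads without molecular identifiers are not independent molecules.

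The group means were 15.3% ± 0.530 (SD, n = 3) for EV, 15.8% ± 2.34 (SD, n = 3) for PgMyb308-like and 15.7% ± 1.00 (SD, n = 2) for line 1712. The PgMyb308-like mean was 0.520 percentage points above EV (exact two-sided permutation test over libraries, p = 0.8). The difference between line 1712 and EV was 0.465 points (exact p = 0.6), and that between PgMyb308-like and line 1712 was 0.0550 points (exact p = 1). No difference exceeded the spread between libraries (adjusted p = 1 for each of the 3 exact tests), although the smallest p these group sizes allow is 0.1. Leaving out PgMyb308-like replicate 3 turned the difference from EV to −0.750 points, and that from line 1712 to −1.17. Leaving out line 1712 replicate 1 turned the difference of line 1712 from EV to −0.237 points, and leaving out line 1712 replicate 2 turned that of PgMyb308-like from line 1712 to −0.698.

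**Figure D1:**
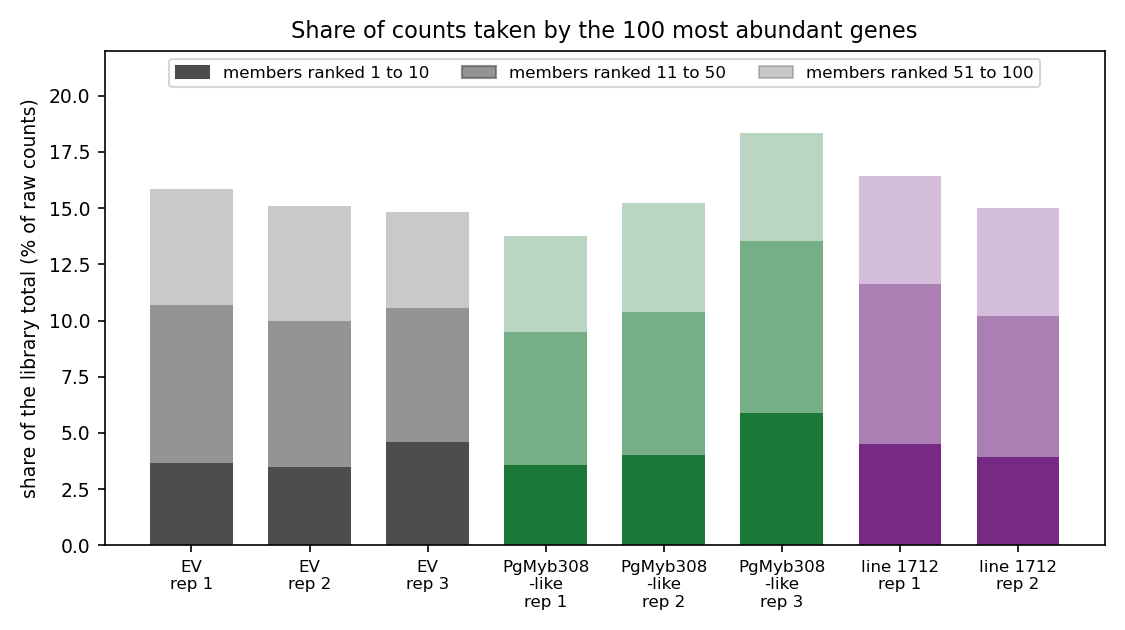
Share of the library total (% of raw counts, y axis) taken by the 100 most abundant genes in each of the 8 libraries (x axis), stacked by the members ranked 1 to 10, 11 to 50 and 51 to 100. The bars run from 13.8% in PgMyb308-like replicate 1 to 18.4% in PgMyb308-like replicate 3, and the EV bars lie between 14.8% and 15.8%.

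The share was also set against depth. Over the 8 libraries, the share correlated with log10 of the total count at Pearson's r = 0.719 (exact permutation p = 0.0368) and Spearman's rho = 0.643 (exact p = 0.0962), which was the only relation of this kind computed. Without the 2 libraries farthest from the median total, line 1712 replicate 1 and PgMyb308-like replicate 3, r was 0.406 (exact p = 0.410, n = 6) and rho was 0.2 (exact p = 0.714), so that the relation rested on those libraries. The part of depth in the share was not tested, and the groups were too small for values within them.

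The share of PgMyb308-like replicate 3 stood 2.78 points above the mean of the 8 libraries, and 3 genes held 1.585 points of this excess. LOC116199965 took 1.58% of that library against a mean of 0.793%, LOC116197616 took 1.07% against 0.617%, and LOC116206760 took 0.638% against 0.294%. The members ranked 1 to 10 together took 5.89% there, and 3.49% to 4.61% in the other libraries, and those ranked 11 to 50 were also highest there, at 7.63%. In PgMyb308-like replicate 1, whose share was 1.80 points below the mean, LOC116209522 went the other way and took 0.954% against a mean of 0.387%. Between 1004 and 1252 genes were needed to reach 50% of the counts of a library, so that even these genes were not dominant.

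The level fell steeply over the first ranks and slowly after them. The mean normalized count was 17287 for the most abundant gene, 6138 at rank 10 and 1802 at rank 100. The first was thus 2.82 times rank 10 and 9.59 times rank 100, and rank 10 was 3.41 times rank 100. The median over the members was 2433 normalized counts, against 53.3 over all genes tested. The edge of the list was not a gap. LOC116200697 and LOC116189090, at ranks 99 and 100, had means of 1803 and 1802, and the next genes, LOC116210613 and LOC116205999, had 1801 and 1777.

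**Figure D2:**
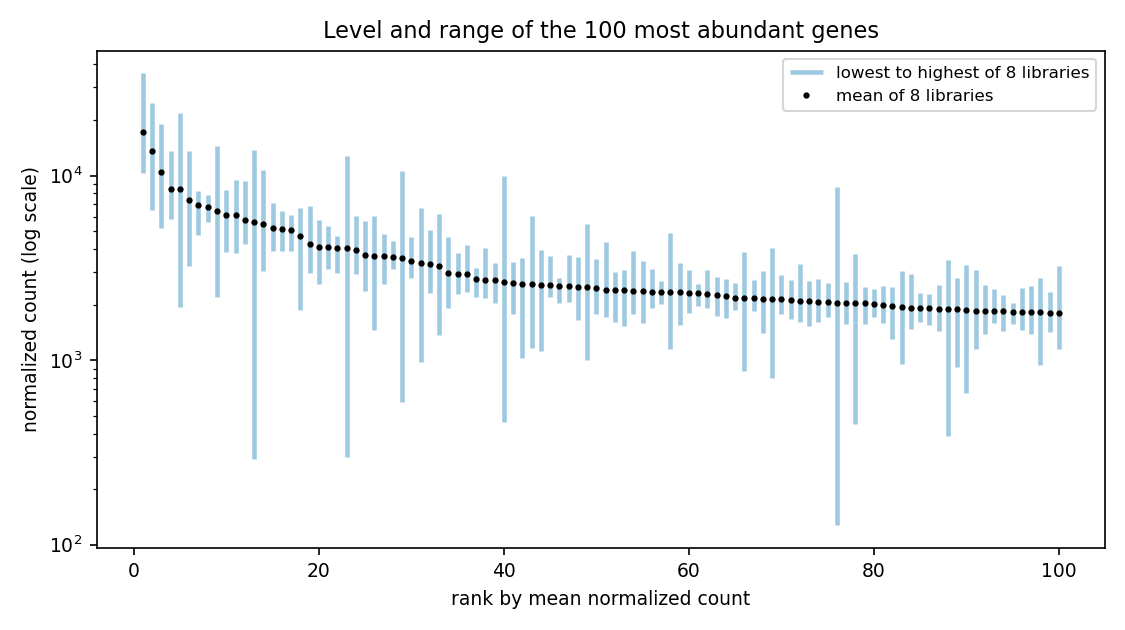
Mean normalized count (points, log scale, y axis) of the 100 most abundant genes by their rank (x axis), with bars from the lowest to the highest of the 8 libraries. The mean drops from 17287 at rank 1 to 1802 at rank 100, and the widest bars, at ranks 13, 23 and 76, span 47.1-fold, 42.9-fold and 67.6-fold.

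The gene at the head of the list held its place in every library. LOC116199965 (chromosome 3, 38628535 to 38629467 in ASM765513v2) ranked 1 to 3 in each of them. Its normalized counts were 12457, 10311 and 19642 in EV, 13582, 16424 and 35788 in PgMyb308-like, and 13951 and 16142 in line 1712. The value in PgMyb308-like replicate 3 was the highest by far, and the remaining PgMyb308-like and line 1712 values lay within the EV range. Its log2 fold change in PgMyb308-like against EV was 0.62 ± 0.38 (SE, edgeR quasi-likelihood test, adjusted p = 0.724), and 0.08 ± 0.29 without PgMyb308-like replicate 3.

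The second gene, LOC116197616 (chromosome 2, 24697537 to 24703001), led EV replicate 1 and line 1712 replicate 1. Its normalized counts were 14378, 11641 and 11040 in EV, 6543, 6891 and 24220 in PgMyb308-like, and 24757 and 9035 in line 1712. The EV libraries stood close together, while 1 library of each other group was above all of them and the rest were below. Its group means, 12353 ± 1779 in EV and 12551 ± 10107 in PgMyb308-like (SD, n = 3), were nearly equal although no PgMyb308-like library lay near the mean. Without PgMyb308-like replicate 3 that group's mean was 6717 and the log2 fold change against EV was −0.88 ± 0.37 (SE, edgeR adjusted p = 0.325).

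The third gene, LOC116209490 (chromosome 5, 4495578 to 4496836), separated the groups. Its normalized counts were 11773, 12989 and 18953 in EV, 5174, 7909 and 8120 in PgMyb308-like, and 8900 and 10280 in line 1712. Every EV library was above every other library, and both line 1712 libraries were above the PgMyb308-like ones. The log2 fold change in PgMyb308-like against EV was −1.05 ± 0.27 (SE), which did not pass edgeR's quasi-likelihood test after adjustment over all genes (adjusted p = 0.292) and passed DESeq2's (adjusted p = 0.0415).

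Of the other genes among the first 10, LOC116192407 ranked between 4 and 9 in every library and LOC116194472 between 5 and 14. LOC116194472 (chromosome 2, 34744140 to 34745798) varied least of the 10, from 5595 to 7858 normalized counts, and 1.40-fold from its lowest to its highest library. LOC116205109 varied 1.73-fold and LOC116207079 2.16-fold. In LOC116192407 and LOC116207079 every EV library was below every other library. LOC116204948 ran from 3246 to 13624 and LOC116206760 from 2200 to 14446 normalized counts, both lowest in PgMyb308-like replicate 1 and highest in PgMyb308-like replicate 3.

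LOC116209522 (chromosome 5, 11190337 to 11191294), at rank 5 by its mean, was the least steady of the 10 from its lowest to its highest library, at 11.2-fold. Its normalized counts were 1949, 7139 and 11493 in EV, 21909, 9928 and 3128 in PgMyb308-like, and 4062 and 7778 in line 1712. It was the top gene of PgMyb308-like replicate 1 and ranked 109 in EV replicate 1. Its spread of 5.90-fold within EV was the widest of any member within that group. LOC116207079, at rank 10, lies 6162 bases away with 1 annotated gene between, and ran from 3847 to 8321 normalized counts with its lowest value in EV replicate 2 and its highest in PgMyb308-like replicate 2.

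Only part of the list was shared by all lines. Of the 100 members, 40 ranked in the top 100 of all 8 libraries, 14 in 7, 10 in 6, 17 in 5, 9 in 4, 8 in 3 and 2 in 2. The number of members in a library's own top 100 was 76 to 83 in 7 of the libraries and 68 in PgMyb308-like replicate 1. Over the 8 libraries, 205 genes reached a top 100, of which 105 were not members and 57 did so in a single library. LOC116189090 and LOC116187063 were in 2 top lists each. Of the 8 members in 3 lists, LOC116200697, LOC116207466 and LOC116203662 ranked between 95 and 99 by the mean, where levels lie close together. LOC116213226 and LOC116214822, also in 3 lists, ranked 40 and 76 by the mean and were low in EV.

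The order within the list was loose. None of the 99 pairs of neighbours in rank kept the same order in all 8 libraries, and the gene with the higher mean was the higher one in 2 to 6 of them. LOC116199965 was above LOC116197616 in 5 libraries, and LOC116197616 above LOC116209490 in 4. Neighbours in rank are thus not ordered beyond their spread. Libraries of 1 group did not share a list of their own. Same-group pairs shared 55 to 81 of their top 100 genes (median 72, 7 pairs), and pairs from different groups shared 55 to 79 (median 69, 21 pairs).

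The members varied less from library to library than most genes. Their median coefficient of variation (SD over mean, n = 8 libraries) was 0.238, against 0.368 over all genes tested, and their median ratio of highest to lowest library was 1.98 against 3.10. The biological coefficient of variation estimated by edgeR, which leaves counting noise out, had a median of 0.288 over the members and 0.380 over all genes. The ratio was under 1.5 in 12 members, under 2 in 52 and over 3 in 28. It was over 5 in 13 members and over 10 in 6.

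The steadiest members sat in the middle and lower ranks. LOC116203662 (chromosome 4, 1582227 to 1584293) had 1841, 1819 and 1849 normalized counts in EV, 2028, 1573 and 1659 in PgMyb308-like, and 1831 and 1978 in line 1712, a range of 1.29-fold. The groups overlapped throughout, and the EV libraries were almost equal. The next were LOC116208570 (chromosome 5, 1.32-fold), LOC116201978 (chromosome 3, 1.34-fold), LOC116188390 (chromosome 8, 1.38-fold) and LOC116207454 (chromosome 5, 1.38-fold). The coefficient of variation of these 5 genes was 0.0820 to 0.108.

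The spread within and between groups was set beside that of all genes. On the log2 scale, the median SD within groups was 0.315 for the members and 0.522 for all genes tested. The SD of the 3 group means had a median of 0.207 for the members and 0.293 for all. The spread between groups was the larger in 18 of 100 members and in 16.9% of all genes tested. The share of a member's variance that lay between groups had a median of 28.9%, against 25.4% over all genes. An SD of group means is expected to be smaller than an SD of single libraries even where groups do not differ. Part of the variance also falls between groups without any group effect, and that level was not computed. Only the comparison with all genes is thus read here, and by it the members divided much as all genes did.

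**Figure D3:**
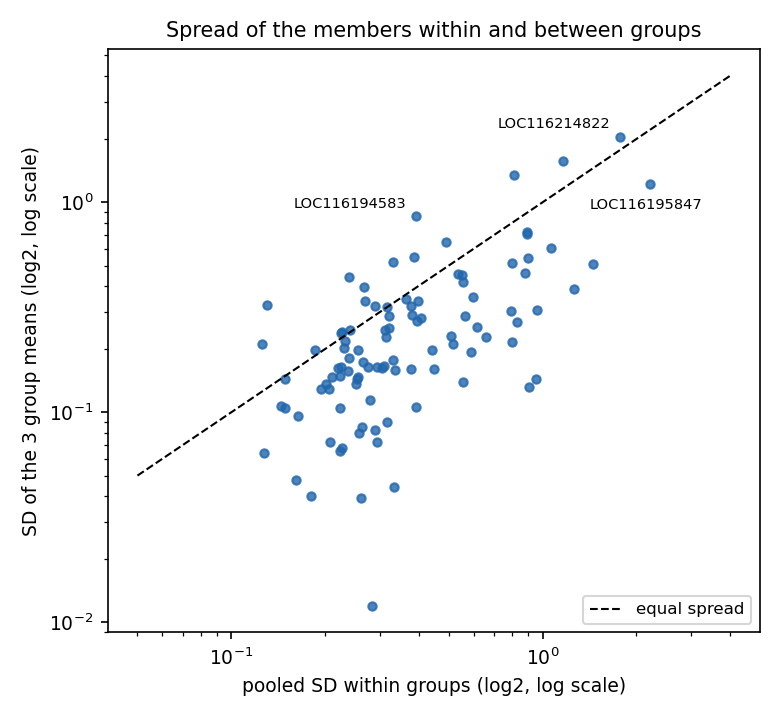
SD of the 3 group means (y axis, log2 units) against the pooled SD within groups (x axis, log2 units) for each of the 100 members (points), both axes on a log scale, with a dashed line where they are equal. For 18 of the 100 members the point lies above the line, among them LOC116194583 and LOC116214822, while LOC116195847 has the widest spread within groups.

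How far the lines of a group diverged depended on the measure and on single libraries. The number of members that differed more than 2-fold within a group was 12 in EV, 29 in PgMyb308-like and 14 in line 1712, the last from 2 libraries only. Over all genes tested the shares were 39.9%, 49.0% and 26.1%. More than 5-fold differences within a group were found for 1 member in EV, 10 in PgMyb308-like and 2 in line 1712. The share of all genes with such differences was not computed, so that these counts mark nothing particular to the members. The counts rested on single libraries. Between PgMyb308-like replicates 1 and 2 alone, 10 members differed more than 2-fold and 0 more than 5-fold. Without EV replicate 1 the EV counts were 3 and 0, and without EV replicate 3 they were 4 and 0. The median SD of the members within a group was not the largest in PgMyb308-like, at 0.324 in EV, 0.272 in PgMyb308-like and 0.195 in line 1712 (log2). Of the 28 members with a ratio over 3, the highest library was line 1712 replicate 1 for 11 and PgMyb308-like replicate 3 for 7, and the lowest was PgMyb308-like replicate 1 for 10 and replicate 2 for 7.

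**Figure D4:**
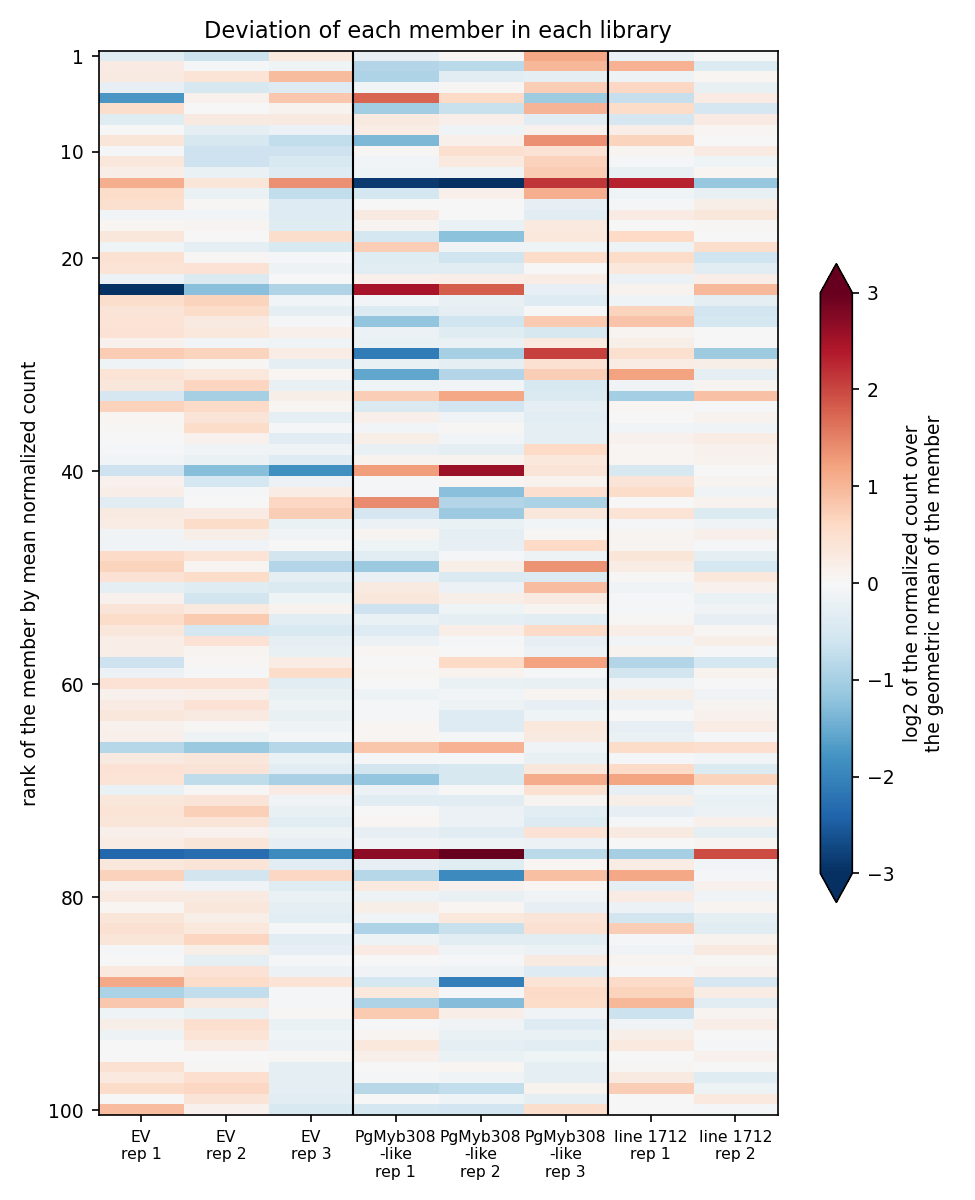
Level of each of the 100 members (rows, by rank) in each library (columns), as log2 of the normalized count over the member's geometric mean over the 8 libraries (red higher, blue lower, colours end at 3). Strong colours lie in a few rows, such as ranks 13, 23, 29, 40 and 76, and PgMyb308-like replicates 1 and 2 differ there from PgMyb308-like replicate 3.

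A handful of genes carried the first principal component. LOC116214822 gave 21.9% of it, LOC116195847 17.6%, LOC116214823 9.85%, LOC116203981 5.49% and LOC116213226 5.02%. These 5 genes, also those with the largest ratios between libraries, held 59.9% of the component, and 3 of them are neighbours on chromosome 7.

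The chromosome 7 neighbours were low in EV and high in single lines of the other groups. LOC116214823 (26427515 to 26428796, rank 23), LOC116214822 (26431902 to 26433127, rank 76) and LOC116213226 (26448511 to 26449405, rank 40) are protein-coding genes within one short stretch. LOC116214822 had 128, 132 and 173 normalized counts in EV, 4135, 8617 and 368 in PgMyb308-like, and 323 and 2508 in line 1712. It ranked 4 in PgMyb308-like replicate 2 and 3676 in EV replicate 1, and all EV libraries were below all others. It entered the list through 3 libraries.

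LOC116214823 had 297, 971 and 1234 normalized counts in EV, 12744, 8071 and 1952 in PgMyb308-like, and 2462 and 4558 in line 1712. LOC116213226 had 1083, 686 and 462 in EV, 3953, 9961 and 2191 in PgMyb308-like, and 1187 and 1659 in line 1712. In both genes every EV library was again below every other library, and PgMyb308-like replicate 3 was the lowest of its group. By the EV mean alone the genes ranked 3215 (LOC116214822), 390 (LOC116214823) and 448 (LOC116213226), so that each is a member only through the groups where it is high. Their differences from EV were favoured by the choice of members, and the tests that follow are descriptions. In PgMyb308-like against EV, the log2 fold changes were 4.92 ± 1.07 (SE) for LOC116214822, 3.17 ± 0.70 for LOC116214823 and 2.85 ± 0.55 for LOC116213226. None passed edgeR's quasi-likelihood test after adjustment over all genes (adjusted p = 0.211, 0.211 and 0.141). All passed DESeq2's (adjusted p = 0.00267, 8.03e-05 and 1.2e-05). They passed edgeR's test too without PgMyb308-like replicate 3, at log2 fold changes of 5.46, 3.63 and 3.23.

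The genes beside them were far less abundant. LOC116214825, between LOC116214822 and LOC116213226, was listed at 0 in every EV library, and had 14.55, 17.54 and 0 normalized counts in PgMyb308-like and 32.2 and 12.56 in line 1712. It was thus higher in both line 1712 libraries than in EV (DESeq2 adjusted p = 0.0427, edgeR adjusted p = 0.839), at levels too low for a fold change. LOC116213438 (26453321 to 26454185), the next gene after LOC116213226 and not a member, was looked at after its values were seen. It had 1.20, 2.13 and 9.67 normalized counts in EV, 200.03, 655 and 70.8 in PgMyb308-like, and 72.3 and 74.0 in line 1712. Every EV library was below every other one here too, and the log2 fold change in PgMyb308-like against EV was 5.95 ± 0.94 (SE, edgeR adjusted p = 0.0683, DESeq2 adjusted p = 1.7e-10). The counting extended 3′ ends downstream, and whether reads were divided between neighbours cannot be told from the counts. How alike these genes are in sequence was not examined.

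A pair of neighbours on chromosome 1 behaved differently from each other. LOC116192407 (46654472 to 46655264, rank 4) had 6873, 5834 and 6162 normalized counts in EV, 7663, 8339 and 13545 in PgMyb308-like, and 12557 and 6914 in line 1712. LOC116195847 (46659961 to 46660661, rank 13), 4696 bases away with no annotated gene between, had 5911, 3573 and 7129 in EV, 376, 293 and 12218 in PgMyb308-like, and 13812 and 1259 in line 1712. LOC116195847 was thus low in PgMyb308-like replicates 1 and 2 and in line 1712 replicate 2. It was high in PgMyb308-like replicate 3 and line 1712 replicate 1, where its neighbour was also highest. Its spread of 41.7-fold within PgMyb308-like and 10.97-fold within line 1712 was the widest of any member in either group. Its log2 fold change against EV was −0.38 ± 1.24 (SE, edgeR adjusted p = 0.969) for PgMyb308-like and 0.46 ± 1.37 (edgeR adjusted p = 1) for line 1712. Without PgMyb308-like replicate 3 the spread within that group was 1.28-fold and its log2 fold change was −4.06 ± 0.85 (SE, edgeR adjusted p = 0.0621).

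LOC116203981 (chromosome 4, 1923207 to 1923965) had 4336, 4073 and 2972 normalized counts in EV, 593, 1270 and 10540 in PgMyb308-like, and 3551 and 1225 in line 1712. Like LOC116195847, it was lowest in PgMyb308-like replicates 1 and 2 and line 1712 replicate 2, and high in PgMyb308-like replicate 3. The log2 fold change in PgMyb308-like against EV was 0.11 ± 0.86 (SE, edgeR adjusted p = 0.988) with that library and −2.02 ± 0.48 (edgeR adjusted p = 0.0855) without it.

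**Figure D5:**
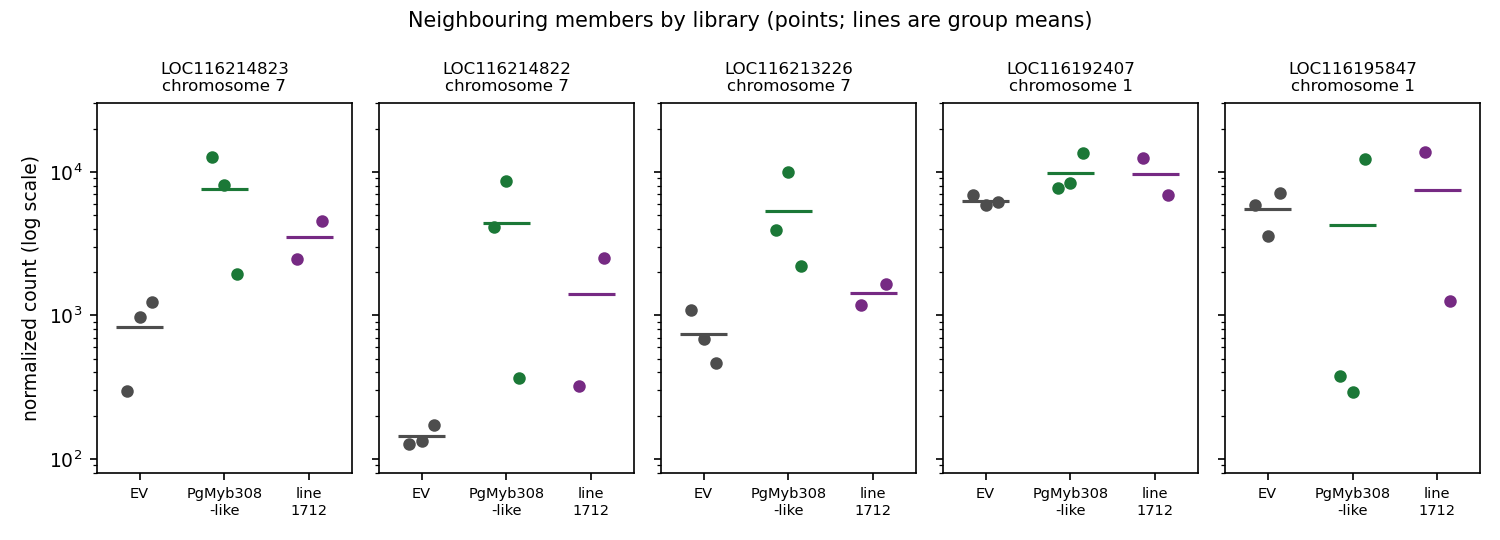
Normalized counts (log scale, y axis) of 3 neighbouring members on chromosome 7 and 2 on chromosome 1, by group (x axis), with 1 point per library and a line at the group mean. The EV points of the chromosome 7 genes lie below all others, and LOC116195847 spans 293 to 12218 within the PgMyb308-like group while LOC116192407 stays between 5834 and 13545 in all libraries.

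In the fit of all libraries edgeR called no member and hardly any gene, while DESeq2 called 5 members in PgMyb308-like against EV. With calls made at a change of more than 1 on the log2 scale and an adjusted p under 0.05, edgeR's quasi-likelihood test called 0 of 100 members in PgMyb308-like against EV, where it called 0.0376% of all genes tested. It called 0 in line 1712 against EV (0.00627% of all genes) and 0 in PgMyb308-like against line 1712 (0% of all genes). The test for any difference among the 3 groups called 0 as well (0.0125% of all genes). At these shares of all genes, 0 calls among 100 members mark nothing particular to the members. At an unadjusted p under 0.05 the members numbered 13, 4, 2 and 11, against 8.27%, 4.26%, 3.55% and 5.77% of all genes. Without PgMyb308-like replicate 3, edgeR called 4 members in PgMyb308-like against EV (0.821% of the 15720 genes then tested), 1 in line 1712 against EV (0.108%) and 4 for any difference (0.458%), and the number of calls over all genes went from 6, 1 and 2 to 129, 17 and 72. All of these members were among those that entered the list through groups other than EV. DESeq2 called 5 members in PgMyb308-like against EV (1.25% of all genes), of which 4 were higher (0.934%) and 1 lower (0.32%). It called 1 in line 1712 against EV (0.495%), 0 in PgMyb308-like against line 1712 (0.0752%) and 3 for any difference (1.1%). The 4 higher members, LOC116194583, LOC116213226, LOC116214822 and LOC116214823, also entered the list through groups other than EV. All members called in line 1712 against EV and for any difference were among them. Their calls were favoured by the choice of members, so that these counts mark no excess over all genes.

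The fold changes of the members were centred near those of all genes. The median log2 fold change was −0.10 in PgMyb308-like against EV, 0.00 in line 1712 against EV and −0.13 in PgMyb308-like against line 1712, and 0.01, 0.00 and 0.00 over all genes tested. The median size of a member's fold change, without its sign, was 0.36, 0.19 and 0.23 (log2), against 0.34, 0.31 and 0.32 for all genes. Both comparisons with EV share the EV libraries.

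The groups did not overlap in 15 members in PgMyb308-like against EV, against 13.1% of all genes tested. Of these 10 were higher (6.91% of all genes) and 5 lower (6.18%). The numbers were 22 in line 1712 against EV (20.1% of all genes) and 15 in PgMyb308-like against line 1712 (16.4%). These shares lay near those of all genes and mark nothing particular to the members.

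Beside the chromosome 7 genes, LOC116209490, LOC116192407 and LOC116207079, EV did not overlap with any other library in LOC116187233, LOC116192293 and LOC116194583 (EV lower) and in LOC116194685, LOC116195671, LOC116195725 and LOC116215080 (EV higher). The margin could be very small, as in LOC116192407, with 6873 normalized counts in EV replicate 1 and 6914 in line 1712 replicate 2. The share of all genes with such a split was not computed, so that it marks nothing particular to the members. LOC116192293 ranked 111 by the EV mean alone, so that its lower level in EV was favoured by the choice of members. Of the genes named above, LOC116194583 and LOC116195725 are described here and were chosen after their values were seen. LOC116194583 (chromosome 2, 1329386 to 1330612) had 1044, 877 and 1051 normalized counts in EV, 3357, 3870 and 1764 in PgMyb308-like, and 2747 and 2657 in line 1712. All EV libraries were lower than all others. It ranked 313 by the EV mean alone, so that it too is a member only through the other groups and its tests against EV were favoured by the choice. Its log2 fold change was 1.59 ± 0.30 (SE) in PgMyb308-like against EV (edgeR adjusted p = 0.135, DESeq2 adjusted p = 0.000283) and 1.46 ± 0.32 in line 1712 against EV (edgeR adjusted p = 0.349, DESeq2 adjusted p = 0.0196). It passed edgeR's test in both comparisons without PgMyb308-like replicate 3. LOC116195725 (chromosome 2, 40406006 to 40411747) had 4619, 4250 and 2945 normalized counts in EV, 2089, 1905 and 2325 in PgMyb308-like, and 2941 and 2726 in line 1712. EV was the highest group in this gene, with a mean of 3938 against 2833 in line 1712. The lowest EV library was barely above the highest of line 1712. The log2 fold change of LOC116195725 in PgMyb308-like against EV was −0.91 ± 0.23 (SE, edgeR adjusted p = 0.278). DESeq2 gave an adjusted p of 0.0415 at a log2 fold change of −0.90, which is short of the change of more than 1 set for a call.

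In the comparison of PgMyb308-like with line 1712, the smallest unadjusted p of a member belonged to LOC116205514 (chromosome 4, 6213204 to 6215907), also chosen after its values were seen. It had 1373, 2172 and 2445 normalized counts in EV, 2079, 3191 and 4876 in PgMyb308-like, and 1153 and 1458 in line 1712. Every PgMyb308-like library was above both line 1712 libraries, and the EV libraries overlapped with both groups. By the line 1712 mean alone LOC116205514 ranked 198, so that it is a member only through the other groups. Its difference from line 1712 was favoured by the choice of members, and its tests are descriptions. The log2 fold change was 1.35 ± 0.39 (SE, edgeR adjusted p = 0.998), and 1.00 ± 0.34 (edgeR adjusted p = 0.444) without PgMyb308-like replicate 3.

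The members were spread over the genome and were mostly short genes. Of the 100, 99 were protein-coding, and 1, LOC116188198 (chromosome 8, 2713611 to 2714115), was a long non-coding RNA with 1719 to 2627 normalized counts. The 8 chromosomes held 14, 20, 11, 14, 10, 9, 12 and 9 members in order of their number, and 1 member lay on an unplaced sequence. The median gene span was 2104.5 bases, against 3187 over all genes tested, and 86 members had a single annotated transcript (86.0%, against 65.9% of all genes). There were 9 pairs of members within 50 kb of each other, formed by 17 members, and in 3 of the pairs the genes were directly adjacent. Apart from the pairs on chromosomes 7 and 1, the third adjacent pair was LOC116211171 and LOC116211173 on chromosome 6, 2010 bases apart, with 1670 to 2728 and 1613 to 2757 normalized counts. Both varied less than 2-fold over the 8 libraries.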

How the data were processed

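Reads of 8 TranSeq libraries (3 EV, 3 PgMyb308-like, 2 line 1712) were aligned with STAR 2.4.2a and counted on extended 3′ ends with htseq-count 0.6.1p1 by the authors, who deposited raw counts per gene. Also named in the submitters' processing notes were DESeq2 1.10.1, DESeq, bcl2fastq 2.17.1.14 and cutadapt. The second deposited table holds a normalized signal, the counts divided by 1 size factor per library, and both tables list only genes whose highest count is at least 6.

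Members were the 100 genes with the largest mean normalized count. Members, lists and named genes were chosen with earlier results of these data known. Genes were named by a rule (the 10 highest means, the 5 largest and 5 smallest ratios between libraries, called members, the edge of the list, and the 5 in the fewest top lists), and others are said to be chosen after their values were seen. Raw counts were filtered (minimum count 10, minimum total 15), TMM-normalized and tested over all 15957 genes with edgeR 4.0.16 (R 4.3.3) in 1 fit of 8 libraries with 5 residual degrees of freedom and Benjamini-Hochberg adjustment. SDs on the log2 scale used a pseudocount of 1. Shares used raw counts, with exact permutation tests (scipy 1.17.1). DESeq2 1.42.0, other scalings and filters, left-out libraries, a replicate block and other list lengths were alternatives.

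Of 18831 identifiers, 18820 matched RefSeq's annotation of ASM765513v2, the source of all coordinates. Lists of pathways and markers had been written on product names, which that annotation does not give, so they were not tested. No sequence is shown, and the PgMyb308-like transcript is not analysed here.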

Additional observations from a re-analysis of the deposited data

How the results depend on the processing

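Over 16 alternative fits of PgMyb308-like against EV, 14 called 0 members, as the fit of all libraries did. DESeq2 called 5 members in PgMyb308-like against EV, 1 in line 1712 against EV and 3 for any difference among the groups. Leaving out 1 library gave 0 to 4, 0 to 1 and 0 to 4 calls in these comparisons, all of the calls without PgMyb308-like replicate 3, where 129, 17 and 72 genes were called in all, and 0 in PgMyb308-like against line 1712. The cause was not tested. With the replicate number as a block, 0 members were called in each comparison. The members' deviations in libraries with the same number correlated at −0.227, 0.0677 and −0.263 between EV and PgMyb308-like. The values were 0.198 and 0.0290 between EV and line 1712, and −0.245 and 0.188 between PgMyb308-like and line 1712. Whether the numbers pair the libraries cannot be told from correlations this weak and of both signs. For 6 members tested against EV, 174 of 174 values kept their direction under the alternatives, and 11 were called. In each of the 6, EV overlapped with neither other group, so that a kept direction was nearly fixed in advance and supports nothing. LOC116194583, LOC116213226, LOC116214822 and LOC116214823 among them are also members only through groups other than EV.

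The share was 10.8% for 50 members and 22.4% for 200. With 200 members, the difference between PgMyb308-like and EV turned to −0.0396 points and that between PgMyb308-like and line 1712 to −0.437, and with members chosen by the median the latter turned to −0.263. For the shares, coefficients of variation and SDs with 1 library left out, the members were chosen again from the remaining libraries. Leaving out 1 library at a time gave −0.750 to 1.23 points for PgMyb308-like against EV, −0.237 to 1.18 for line 1712 against EV and −1.17 to 0.897 for PgMyb308-like against line 1712. The median coefficient of variation was 0.297 for 50 members and 0.220 for 200, and 0.223 to 0.260 with 1 library left out. The median SD within groups was 0.385 for 50 members, and 0.260 to 0.332 with 1 library left out. In the top 150 of every library there were 62 members, and in the top 200 there were 77. The spread within EV and PgMyb308-like with 1 library left out was an alternative chosen after seeing the data. The list itself kept 94 members when chosen by the median, 100 by CPM and 96 to 99 with 1 library left out.

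No member had fewer than 106 raw counts in a library, so that counting error was small beside the spread between lines.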
